A study of Homo sapiens with 4 samples.

Results

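Excision repair, mismatch repair and direct reversal of alkylated bases were examined through 39 genes, chosen by symbol from a list of repair proteins, and all 39 were found among the 16658 genes of the expression table. RNA was sequenced from cells labelled HepG2, an established line from a human liver tumor, in 2 groups that were both left untreated. The WT group held 2 libraries of wildtype cells, and the ZCCHC4 KO1 group held 2 libraries of 1 of the lines in which CRISPR/Cas9 had been used to knock out ZCCHC4, an RNA-binding protein and methyltransferase. Nothing in the labels says that the 2 libraries of a group came from separate cultures, so the p-values measure only the spread between these libraries, which may be technical, and changes due to the knockout and to the line that was picked cannot be told apart.

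Cells remove most damaged bases by cutting them out and copying the opposite strand. Nucleotide excision repair takes out a short stretch around a bulky lesion such as a platinum or ultraviolet adduct, base excision repair starts with a glycosylase that removes a single altered base, and mismatch repair corrects copying errors behind the replication fork. A separate protein, MGMT, takes alkyl groups off guanine directly and is used up in doing so.

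The knockout was checked first, here by the site of the guide and by RNA alone. For its knockout lines the paper reports frameshift mutations in the DNA and shows an immunoblot of the protein. The guide of the study matched 1 site on chromosome 4 of hg38, chr4:25312824-25312843 on the plus strand, in the coding part of exon 1 of ZCCHC4 (transcript ENST00000302874.9), and is shown because every comparison rests on this cut. The capitals mark the PAM that follows the 20 bases of the guide in the genome.
ZCCHC4 knockout guide: gaatgggtttgaagccgtggAGG
Expression is given as FPKM, fragments scaled to the length of the transcript and to the mapped total, so that levels can be set beside each other between genes. ZCCHC4 was measured at 7.22 and 5.44 in WT against 1.08 and 2.29 in ZCCHC4 KO1. The groups did not overlap and ZCCHC4 fell, its log2 fold change being -1.48 with a standard error of 0.287 (limma adjusted p = 0.0448). Without ZCCHC4 KO1 replicate 1 the log2 fold change was -1.15 and the adjusted p from limma 0.0514. Defining hepatocyte genes were nearly silent: of 28 such genes 18 were listed, and the FPKM was at least 1 in WT for just 1. These levels go against the HepG2 label, and the groups are named here as labelled. AFP, the fetal serum protein that marks HepG2, was listed at 0 and 0.05 in WT and at 0 in both ZCCHC4 KO1 libraries. Among epithelial markers, KRT7 had 2025.95 and 2359.14 in WT against 3077.59 and 2351.8 in ZCCHC4 KO1, while KRT19 and EPCAM stayed at or below 0.11 in all 4 libraries.

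Nearly all of the repair genes were transcribed in both groups, over a wide range of levels. In the WT libraries 3 genes had a mean FPKM of at least 100, 19 lay from 10 to under 100, 16 from 1 to under 10, and 1 was below 1. APEX1, the endonuclease that cuts the backbone after a glycosylase has acted, was the highest at 223.48 and 237.69 in WT against 223.72 and 203.9 in ZCCHC4 KO1. DDB1, the adaptor that ties damage sensing to ubiquitin ligation, followed at a mean of 125.3 ± 11.1 (SD, n = 2), and PARP1, which senses broken strands, at 115.7 ± 4.30 (SD, n = 2). The WT libraries of DDB1 and PARP1 overlapped, so these neighbours in the order did not differ beyond their spread. UNG and RAD23B came next at 88.9 ± 5.67 and 59.8 ± 7.38 (SD, n = 2 each). At the low end PMS1, MGMT, ERCC4, MLH3 and GTF2H5 had mean WT values between 1.65 and 1.83, and their WT libraries overlapped with one another. NEIL1, a glycosylase for oxidised bases, was at 0.32 and 0.4 in WT against 0.28 and 0.41 in ZCCHC4 KO1, and it was the only one of the 39 that did not reach an FPKM of 1 in at least 2 libraries. The other 38 genes were tested, and 1 of them, ERCC4, was below 1 in a library.

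**Figure D1:**
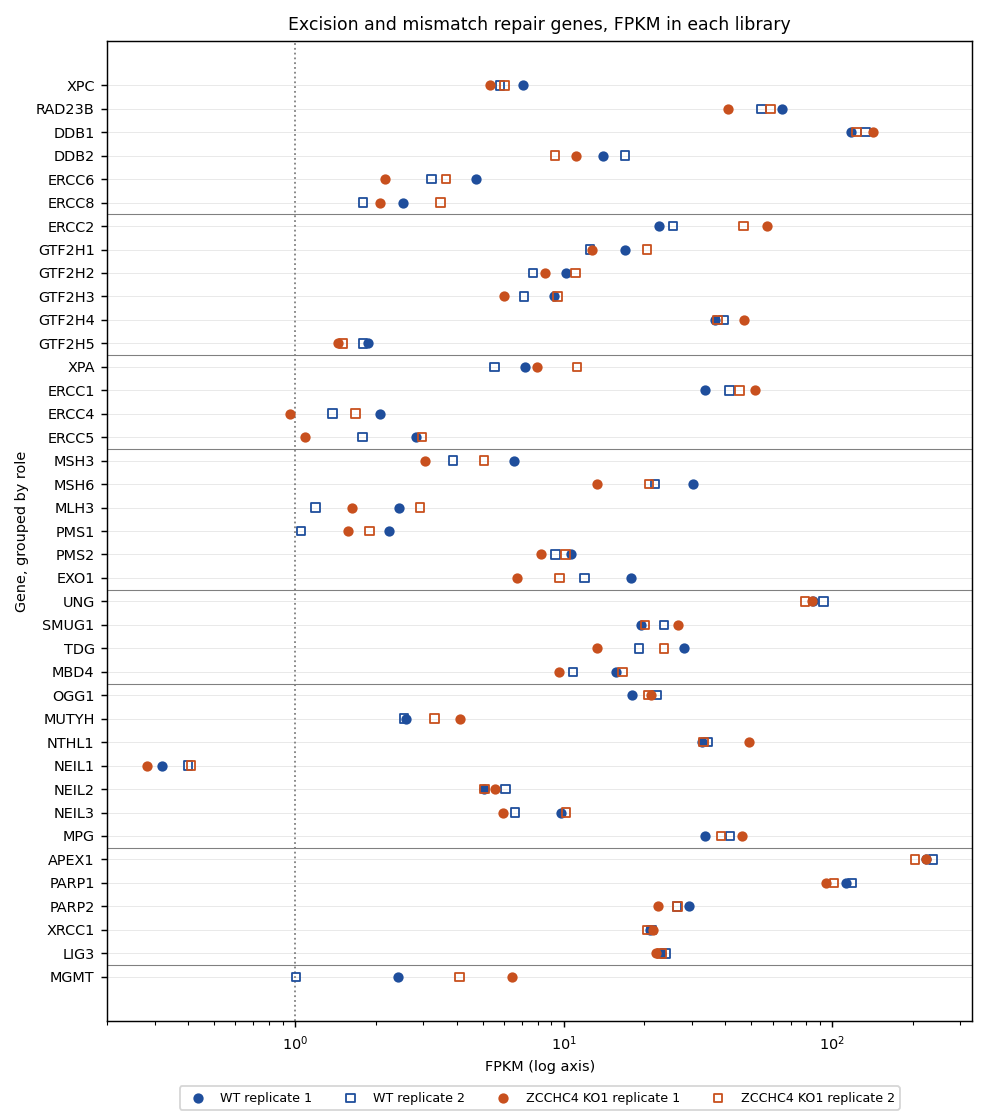
FPKM (log axis) of each of the 39 repair genes in the 4 libraries, with WT in blue, ZCCHC4 KO1 in orange, replicate 1 as filled circles and replicate 2 as open squares. Lines separate the roles and the dotted line marks an FPKM of 1, which all but NEIL1 reached in both WT libraries. The ZCCHC4 KO1 points of ERCC2, at 57.19 and 46.86, lie to the right of its WT points at 22.6 and 25.59.

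Against WT, ZCCHC4 KO1 cells had 1 repair gene that rose and 0 that fell. The comparison used limma on log2(FPKM + 1), on which changes of weakly expressed genes are understated, and genes were called at an adjusted p under 0.05. Among the 10726 genes tested 161 were called higher, or 1.50%, and 480 lower, or 4.48%. At an unadjusted p under 0.05, 2 of the 38 repair genes were higher and 2 lower in limma, below the shares over all genes of 8.96% and 13.9%. The thresholds of the study, an adjusted p under 0.001 and a fold change of at least 2, were also applied to limma. By them 0 of the 38 were called, where 0.0186% of all genes were higher and 0.0559% lower. The paper, which does not name its test, reports far more genes at its thresholds. So few genes passed here that this 0 says little about the repair genes. The log2 fold changes ran from -0.78 for EXO1 to 1.23 for MGMT, with a median of -0.045, beside -0.029 over all genes tested. Of the 38, 16 had a positive and 22 a negative value. Both ZCCHC4 KO1 libraries lay above both WT libraries for 5 genes, namely ERCC2, XPA, ERCC1, MUTYH and MGMT, and below both for 6, namely DDB2, GTF2H5, MSH6, EXO1, UNG and PARP1. The share of all tested genes with such a separation was 23.1% above and 28.5% below. For the other 27 repair genes the groups overlapped.

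**Figure D2:**
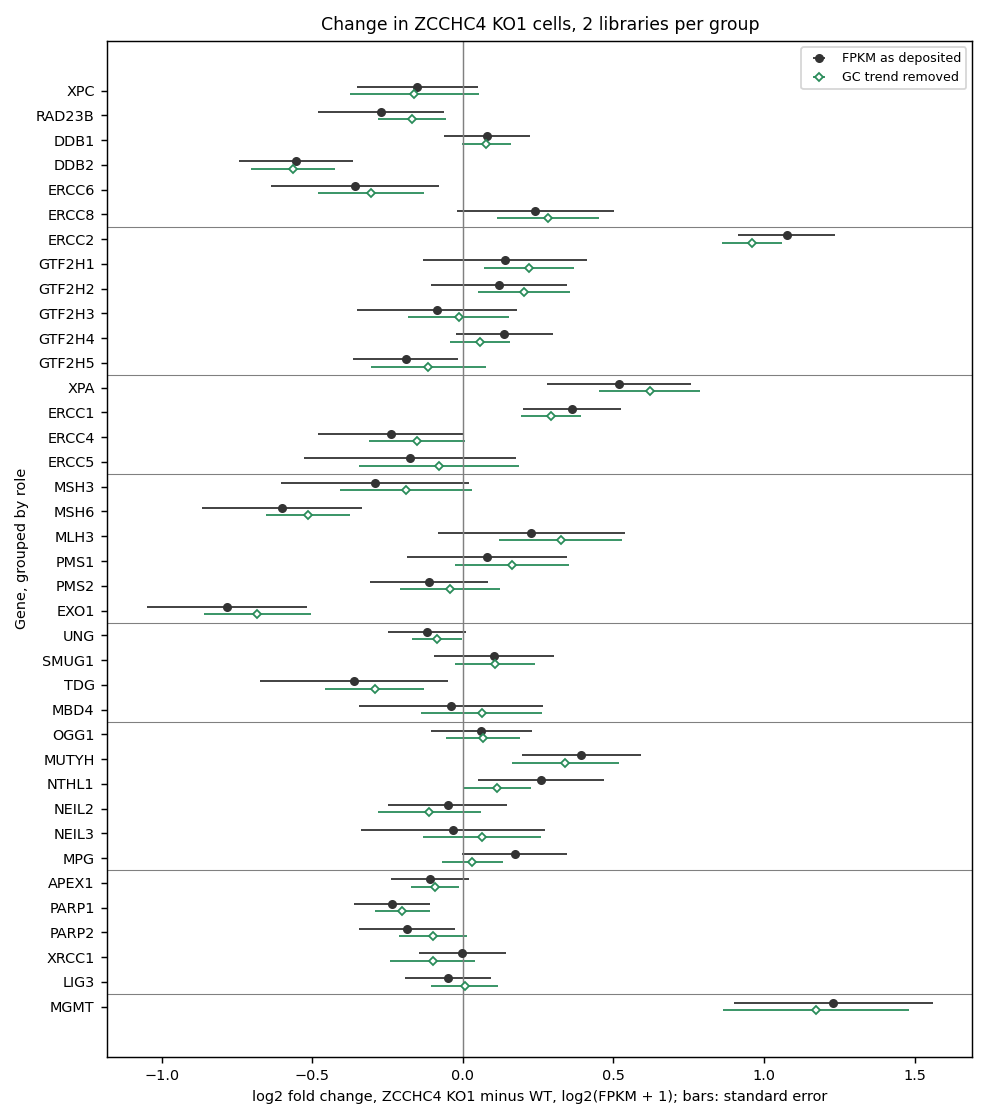
Log2 fold change (ZCCHC4 KO1 minus WT, on log2(FPKM + 1)) of the 38 tested repair genes with its standard error, from FPKM as deposited (black circles) and after removal of the trend on GC content (open green diamonds), with 2 libraries per group. ERCC2 at 1.07 and MGMT at 1.23 stand at the right, and EXO1 at -0.78 and MSH6 at -0.60 at the left.

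Within each group the replicates differed along with the base composition of the transcript. All 18 tested repair genes whose longest transcript had a GC content under 45%, a limit set after the values were seen, were lower in WT replicate 2 than in WT replicate 1, and all 18 were higher in ZCCHC4 KO1 replicate 2 than in ZCCHC4 KO1 replicate 1. TDG, a thymine glycosylase with a GC content of 39.0%, shows the pattern at 28 and 19.09 in WT against 13.34 and 23.61 in ZCCHC4 KO1. Of the 20 genes at or over 45%, 13 moved the opposite way in both groups, NTHL1 at 63.8% among them with 32.68 and 34.56 in WT against 49.12 and 33.22 in ZCCHC4 KO1. Across the 38 genes, which share these 4 libraries and are not independent replicates, GC content had a Spearman correlation of 0.676 with the difference of replicate 2 from replicate 1 in WT and of -0.808 in ZCCHC4 KO1. Over 10559 tested genes the corresponding values were 0.706 and -0.764. Against the log2 fold change between the groups GC content had a Spearman correlation of 0.395 over the 38 genes and 0.183 over all genes, and values after removal of the GC trend from each library are given beside those as deposited. With the trend removed, 3 of the 38 repair genes were higher and 3 lower at an adjusted p under 0.05 from limma, where 7.35% of all genes were higher and 12.7% lower.

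Among the proteins that recognise lesions for nucleotide excision repair, DDB2 had the largest difference. DDB2 binds ultraviolet damage in chromatin together with DDB1, while XPC with RAD23B senses a distorted helix and ERCC6 with ERCC8 acts where RNA polymerase has stalled. The FPKM of DDB2 (chromosome 11 from 47214454 to 47239217, GRCh38.p14) was 14.06 and 16.9 in WT against 11.11 and 9.31 in ZCCHC4 KO1. Both ZCCHC4 KO1 values lay below both WT values, at 66.0% of the WT mean. The log2 fold change was -0.56 (standard error 0.189) and did not pass (adjusted p = 0.156 from limma), whereas with the GC trend removed DDB2 fell by 0.56 on the log2 scale (adjusted p = 0.0274 from limma). None of the other 5 was called in either way. DDB1 was at 117.47 and 133.11 in WT against 141.53 and 123.49 in ZCCHC4 KO1, with a log2 fold change of 0.080 (95% interval -0.27 to 0.43). The log2 fold changes of XPC, RAD23B, ERCC6 and ERCC8 lay between -0.36 and 0.24, and their groups overlapped.

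DDB2 and XPC are known targets of p53. Of 20 such targets, both included, 19 were tested, and 9 had a positive and 10 a negative log2 fold change, with a median of -0.028. GDF15, a secreted stress factor, was called higher at 7.41 and 7.69 in WT against 22.37 and 15.07 in ZCCHC4 KO1. TNFRSF10B, a death receptor, was called lower at 25.61 and 25.98 in WT against 13.01 and 13.23 in ZCCHC4 KO1. It lies on chromosome 8, and the genes next to it were not examined. CDKN1A, the inhibitor of cyclin-dependent kinases, was at 20.25 and 21.53 in WT against 12.28 and 8.14 in ZCCHC4 KO1, which did not pass (log2 fold change -0.99, adjusted p = 0.0643 from limma), but passed with the GC trend removed (-1.08, adjusted p = 0.00275 from limma). AEN, a further target, went the other way at 24.57 and 28.94 in WT against 51.9 and 41.76 in ZCCHC4 KO1. It did not pass as deposited (log2 fold change 0.78, adjusted p = 0.0596 from limma) but passed with the GC trend removed (0.79, adjusted p = 0.00302 from limma). With that trend removed 3 of the 19 were higher, namely GDF15, AEN and PHLDA3. The 4 lower were CDKN1A, TNFRSF10B, ZMAT3 and DDB2. Over all genes 7.35% were higher and 12.7% lower. The part of p53 in the values of DDB2 was not tested.

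TFIIH held the repair gene that rose. TFIIH is the complex that opens the helix around a lesion and at promoters, and ERCC2, also known as XPD, is its repair helicase. ERCC2 (chromosome 19 from 45349837 to 45370573) was at 22.6 and 25.59 FPKM in WT against 57.19 and 46.86 in ZCCHC4 KO1. Each ZCCHC4 KO1 library was above each WT library by a wide margin, and the mean was 2.16-fold that of WT. The log2 fold change was 1.07 (standard error 0.162, 95% interval 0.67 to 1.48, adjusted p = 0.0240 from limma), and 95 of the 10726 genes tested had a larger one. With the GC trend removed ERCC2 stood at 0.96 (adjusted p = 0.000946 from limma). The call rested in part on WT replicate 1, without which the log2 fold change was 0.99 and the adjusted p from limma 0.0502, and on the filter, without which the adjusted p was 0.0583.

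The other 5 TFIIH subunits were not called. GTF2H4, the subunit that anchors the other helicase, had the highest WT level of the 6 TFIIH genes at 36.6 and 39.44, against 46.85 and 37.41 in ZCCHC4 KO1, with a log2 fold change of 0.14 (95% interval -0.26 to 0.53). The core subunits GTF2H1, GTF2H2 and GTF2H3 had log2 fold changes of 0.14, 0.12 and -0.086 with overlapping groups, and GTF2H2 has near-identical copies among which reads can be divided differently. GTF2H5, a small stabilising subunit, was at 1.87 and 1.79 in WT against 1.45 and 1.51 in ZCCHC4 KO1, a log2 fold change of -0.19 that did not pass (adjusted p = 0.588 from limma). From the list of pathway partners ERCC3, the other helicase of TFIIH, was at 42.5 and 43.27 in WT against 57 and 63.51 in ZCCHC4 KO1. Its log2 fold change was 0.48 (adjusted p = 0.10 from limma) as deposited, and it passed with the GC trend removed (adjusted p = 0.00580 from limma). The kinase subunits CDK7, CCNH and MNAT1 had overlapping groups.

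The promoter of ERCC2 is printed because ERCC2 was the gene called with the values as deposited. Promoters here and further on come from RefSeq (GRCh38.p14), which gave one for 37 of the 39 genes, and run from 250 bases before the first listed start of the gene to 30 bases after it. That start is the outermost one of the gene for all that are printed except EXO1, where it lies 218 bases downstream of it. Capitals mark the GC box, spelled GGGCGG, on either strand. They also mark the box spelled CCAAT, and the E2F words TTTGGCGC, TTTCGCGC, TTTCCCGC and TTTGCCGC, again on either strand, and no matches overlap in the promoters printed. The ERCC2 window is chr19:45370544-45370823 (minus strand).
ERCC2: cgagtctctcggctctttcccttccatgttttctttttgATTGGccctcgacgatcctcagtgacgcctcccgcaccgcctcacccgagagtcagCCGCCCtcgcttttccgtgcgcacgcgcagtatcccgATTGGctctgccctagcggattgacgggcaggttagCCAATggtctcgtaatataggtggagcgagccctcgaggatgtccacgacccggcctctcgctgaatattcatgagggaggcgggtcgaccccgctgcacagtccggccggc
It holds 1 GC box and 3 CCAAT boxes. In the windows of 300 bases that the table gives, 44.6% of all 27305 promoters hold a GC box, 35.7% a CCAAT box and 3.33% an E2F word, and 29, 17 and 5 of the 37 repair promoters do. The TATA word TATAAA stands in 12% of all promoters and in 0 of the 37. All promoters include those of genes that were not tested here for low expression, whereas 38 of the 39 repair genes were tested, so these shares compare unlike sets. A match describes the letters and shows no binding.

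Genes next to ERCC2 on chromosome 19 had values in both directions. Of the nearest 10 tested genes on each side, 11 had a positive and 9 a negative log2 fold change, with a median of 0.065, and 0 of the 20 were called by limma. KLC3, whose exons share 535 of the 6937 exonic bases of ERCC2 on the opposite strand, was at 0.68 and 0.72 in WT against 2.15 and 1.12 in ZCCHC4 KO1. Whether the reads were counted by strand is not given in the sources used here, and its part in the value of ERCC2 was not tested. In all, 17 of the 39 repair genes share exonic bases with another protein-coding gene. ERCC1 lies on the same stretch (chromosome 19 from 45407334 to 45451547), and XRCC1 farther away on the same chromosome was at 20.91 and 21.22 in WT against 21.55 and 20.54 in ZCCHC4 KO1.

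**Figure D3:**
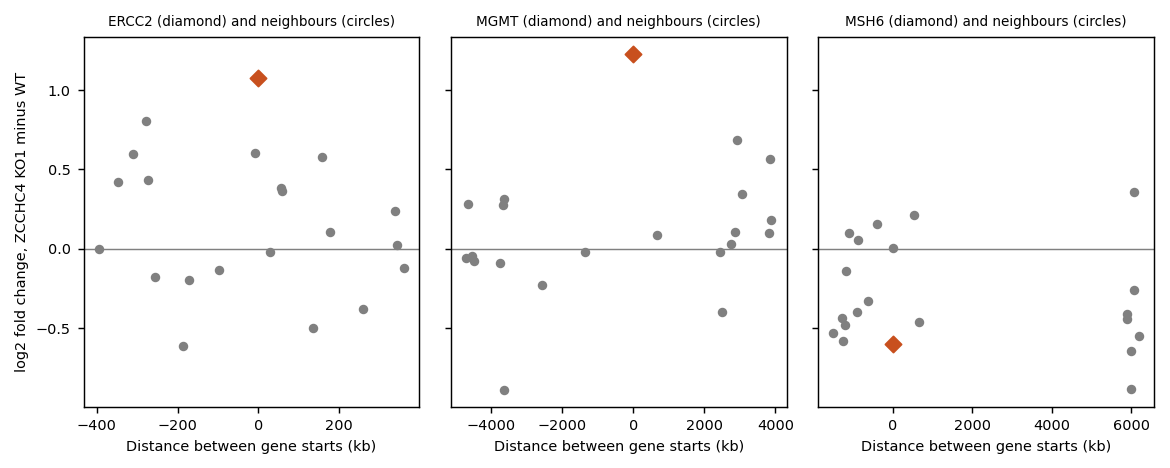
Log2 fold change (ZCCHC4 KO1 minus WT) of ERCC2, MGMT and MSH6 (diamonds) and of the 20 nearest tested genes of each (circles), against the distance between gene starts in kb. The neighbours of ERCC2 and MGMT lie on both sides of 0 with medians of 0.065 and 0.059, while those of MSH6 have a median of -0.41.

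The genes that verify the lesion and cut the strand showed higher values for XPA and ERCC1 but no call with the values as deposited. XPA holds the damaged strand in place, and ERCC1 with ERCC4 cuts on one side of the lesion while ERCC5 cuts on the other. XPA was at 7.18 and 5.52 in WT against 7.96 and 11.21 in ZCCHC4 KO1, without overlap. Its log2 fold change was 0.52 (standard error 0.240, adjusted p = 0.274 from limma), and with the GC trend removed it was 0.62 and passed (adjusted p = 0.0384 from limma). As deposited, XPA ran from 0.30 without ZCCHC4 KO1 replicate 2 to 0.74 without ZCCHC4 KO1 replicate 1. ERCC1 was the most abundant of these 4 at 33.7 and 41.42 in WT against 51.74 and 45.2 in ZCCHC4 KO1, again without overlap, with a log2 fold change of 0.36 (adjusted p = 0.259 from limma, and 0.0784 with the GC trend removed). Leaving out a library moved ERCC1 between 0.22, without WT replicate 1, and 0.51, without WT replicate 2. POLR1G, which shares 1593 of the 5575 exonic bases of ERCC1 on the opposite strand, was at 12.93 and 15.12 in WT against 19.2 and 17.97 in ZCCHC4 KO1. ERCC4, the partner of ERCC1 in the nuclease, was at 2.08 and 1.38 in WT against 0.96 and 1.68 in ZCCHC4 KO1, with overlapping groups. ERCC5, which also shares exons with a read-through transcript, had the widest standard error of the 38 genes at 0.351.

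In mismatch repair the lower values were those of EXO1 and MSH6. MSH6 recognises base mismatches and small loops and MSH3 larger loops, PMS2, PMS1 and MLH3 are alternative MutL subunits, and EXO1 removes the strand that carries the error. EXO1 (chromosome 1 from 241847986 to 241889939) was at 17.79 and 11.97 in WT against 6.72 and 9.64 in ZCCHC4 KO1. Both ZCCHC4 KO1 values lay below both WT values, at 55.0% of the WT mean, with a wide spread in each group. The log2 fold change was -0.78 (standard error 0.266) and did not pass (adjusted p = 0.154 from limma), whereas with the GC trend removed EXO1 fell by 0.68 on the log2 scale (adjusted p = 0.0327 from limma). MSH6 (chromosome 2 from 47783145 to 47810101), the most abundant of the 6, was at 30.36 and 21.87 in WT against 13.3 and 20.79 in ZCCHC4 KO1. The lower WT value and the higher ZCCHC4 KO1 value of MSH6 lie close together. Its log2 fold change of -0.60 did not pass (adjusted p = 0.252 from limma), and with the GC trend removed it fell by 0.51 on the log2 scale (adjusted p = 0.0394 from limma). Without ZCCHC4 KO1 replicate 2 both passed with the values as deposited, EXO1 at -1.02 (adjusted p = 0.0265 from limma) and MSH6 at -0.91 (adjusted p = 0.0230 from limma). Other libraries moved them the other way, EXO1 to -0.52 without WT replicate 1 (adjusted p = 0.817 from limma), and MSH6 to -0.37 without WT replicate 1 (adjusted p = 0.891 from limma) and -0.30 without ZCCHC4 KO1 replicate 1 (adjusted p = 0.531 from limma).

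MSH3, MLH3, PMS1 and PMS2 had log2 fold changes between -0.29 and 0.23 with overlapping groups, and PMS2 has near-identical copies among which reads can be divided. MSH6 shares 4022 of its 17722 exonic bases with FBXO11 on the opposite strand. Of the 20 nearest tested genes of MSH6, 14 had a negative log2 fold change and 6 a positive one, and 0 were called by limma. Over all 10726 genes tested, 5708 were negative and 5018 positive. The neighbours of MSH6 reached as far as ACYP2 at 6188 kb, so they do not describe a narrow region. For EXO1 the 20 neighbours were split into 10 and 10, with a median of 0.0078, and 2 were called by limma.

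The promoters of EXO1 and MSH6 are shown with that of DDB2 because these were the genes that passed as lower with the GC trend removed. The windows are chr1:241847954-241848233 (plus strand), chr2:47782895-47783174 (plus strand) and chr11:47214204-47214483 (plus strand), with the same capitals as for ERCC2.
EXO1: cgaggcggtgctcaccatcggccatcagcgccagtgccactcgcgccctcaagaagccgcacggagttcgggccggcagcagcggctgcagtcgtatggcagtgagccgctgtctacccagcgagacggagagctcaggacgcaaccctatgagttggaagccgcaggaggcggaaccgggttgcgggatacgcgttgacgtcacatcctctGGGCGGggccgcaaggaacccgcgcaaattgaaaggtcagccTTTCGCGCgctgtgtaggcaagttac
MSH6: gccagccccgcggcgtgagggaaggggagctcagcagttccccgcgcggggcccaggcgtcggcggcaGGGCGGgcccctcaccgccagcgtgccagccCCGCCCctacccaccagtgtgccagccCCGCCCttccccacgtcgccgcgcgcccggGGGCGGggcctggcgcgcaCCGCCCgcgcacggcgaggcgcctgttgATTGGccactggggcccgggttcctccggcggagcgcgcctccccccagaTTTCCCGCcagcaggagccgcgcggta
DDB2: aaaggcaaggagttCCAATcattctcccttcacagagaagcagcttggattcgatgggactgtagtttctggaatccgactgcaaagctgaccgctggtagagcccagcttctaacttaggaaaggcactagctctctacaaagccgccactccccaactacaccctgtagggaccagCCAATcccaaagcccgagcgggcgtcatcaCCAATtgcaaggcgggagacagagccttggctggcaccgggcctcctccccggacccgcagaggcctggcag
EXO1 and MSH6 each hold 1 E2F word, just after the start that the window was drawn from, and the other repair promoters with any are those of XPC, MSH3 and PMS2. DDB2 holds 3 CCAAT boxes and 0 GC boxes or E2F words. XPC, MSH3 and PMS2 had log2 fold changes of -0.15, -0.29 and -0.11 and were not called.

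Markers of proliferation were set beside EXO1 and MSH6, which serve replication. Of 24 such genes, all tested, 3 were lower and 0 higher as deposited, where 4.48% and 1.50% of all genes were. With the GC trend removed 10 were lower and 0 higher, where 12.7% and 7.35% of all genes were. The median log2 fold change was -0.32, with 19 negative and 5 positive values. The positive ones were those of PLK1, AURKB, BUB1, TOP2A and TK1, from 0.15 to 0.31. Both ZCCHC4 KO1 libraries lay below both WT libraries for 12 of the 24 and above them for PLK1 alone. Over all tested genes the shares were 28.5% and 23.1%. The 3 called lower as deposited were MCM6, RRM2 and MCM4. MCM6, a helicase subunit for replication, was at 42.49 and 39.32 in WT against 13.74 and 19.6 in ZCCHC4 KO1. RRM2, a subunit of ribonucleotide reductase, was at 109.38 and 105.07 in WT against 49.21 and 61.11 in ZCCHC4 KO1. MCM4 was at 117.14 and 113.67 in WT against 59.79 and 72.53 in ZCCHC4 KO1. MCM6 lies on chromosome 2 and MCM4 on chromosome 8, and the genes next to them were not examined. MKI67, a defining marker of cycling cells, was at 30.89 and 19.84 in WT against 18.82 and 31.56 in ZCCHC4 KO1, with overlapping groups. The summed FPKM of the list was 2682.48 and 2693.93 in WT against 2209.09 and 2292.37 in ZCCHC4 KO1. In bulk RNA fewer cycling cells and less RNA per cell cannot be told apart, and the part of proliferation in the values of EXO1 and MSH6 was not tested.

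In base excision repair 0 genes were called by limma, with the values as deposited and with the GC trend removed, and 0 had an unadjusted p under 0.05. Over all genes 1.50% were called higher and 4.48% lower as deposited, and 7.35% and 12.7% with the GC trend removed. At an unadjusted p under 0.05 from limma the shares were 8.96% and 13.9%. The roles of this pathway had 4, 6 and 5 genes tested, so few calls would be reached at such shares. UNG, SMUG1, TDG and MBD4 remove uracil or mispaired thymine. UNG was at 84.85 and 92.87 in WT against 84 and 79.35 in ZCCHC4 KO1, a log2 fold change of -0.12 with a 95% interval of -0.44 to 0.20. Its groups did not overlap, but by a margin under 1 FPKM. TDG had the largest value of the 4 at -0.36 (adjusted p = 0.565 from limma), and SMUG1 and MBD4 were at 0.10 and -0.040. Among the glycosylases for oxidised and alkylated bases, MPG for alkylated purines was the most abundant at 33.6 and 41.74 in WT against 46.36 and 38.61 in ZCCHC4 KO1, with a log2 fold change of 0.17. MUTYH, which removes adenine opposite oxidised guanine, had the largest at 0.39, from 2.59 and 2.55 to 4.1 and 3.31, and did not pass (adjusted p = 0.306 from limma, and 0.227 with the GC trend removed). OGG1, NTHL1, NEIL2 and NEIL3 lay between -0.050 and 0.26 with overlapping groups.

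The genes that cut, signal and seal after the glycosylase were not called either. APEX1, PARP1, PARP2, XRCC1 and LIG3 all had negative log2 fold changes, from -0.24 to -0.0017, with standard errors of 0.125 to 0.159. PARP1 was at 112.62 and 118.7 in WT against 94.67 and 101.63 in ZCCHC4 KO1, without overlap, at 84.9% of the WT mean. Its log2 fold change of -0.24 had a 95% interval of -0.54 to 0.074 (adjusted p = 0.335 from limma), and with the GC trend removed it was -0.20 (adjusted p = 0.170 from limma). APEX1 had a log2 fold change of -0.11 (95% interval -0.43 to 0.21). XRCC1, the scaffold, and LIG3, the ligase bound to it, were at -0.0017 and -0.050, and the interval of XRCC1 from -0.36 to 0.35 leaves room for a moderate change in either direction.

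MGMT, the direct reversal protein, had the largest log2 fold change of the 38 genes at a low level. MGMT (chromosome 10 from 129467241 to 129770983) was at 2.42 and 1.01 FPKM in WT and 6.42 and 4.1 in ZCCHC4 KO1. Both ZCCHC4 KO1 values were above both WT values, and the mean was 3.07-fold that of WT, with WT replicates far apart. The log2 fold change of 1.23 (standard error 0.331, 95% interval 0.41 to 2.05) did not pass (adjusted p = 0.0948 from limma), and with the GC trend removed it was 1.17 and passed (adjusted p = 0.0348 from limma). With the replicate numbers as a block, which the labels tie to no batch, MGMT passed (adjusted p = 0.0469 from limma). It also passed after scaling by median ratios and after quantile normalization (adjusted p = 0.00321 and 0.0245 from limma). With a pseudocount of 0.1, with no filter and with eBayes without a trend MGMT did not pass (adjusted p = 0.107, 0.190 and 0.101 from limma). Over leaving out each library in turn it ranged from 0.85 without WT replicate 2 to 1.61 without WT replicate 1, with adjusted p from limma of 0.382 and 0.00760. Of its 20 nearest tested genes 11 had positive and 9 negative values, with a median of 0.059, and 0 were called by limma. The MGMT promoter is printed for this largest value, in the window chr10:129466991-129467270 (plus strand).
MGMT: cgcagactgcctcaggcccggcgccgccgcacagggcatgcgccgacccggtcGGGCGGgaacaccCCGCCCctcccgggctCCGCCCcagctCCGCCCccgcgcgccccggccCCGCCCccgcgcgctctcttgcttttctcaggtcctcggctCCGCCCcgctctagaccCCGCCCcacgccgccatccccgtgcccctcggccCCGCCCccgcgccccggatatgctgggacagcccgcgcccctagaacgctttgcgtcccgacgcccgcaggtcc
It holds 8 GC boxes, the most of the 37, 0 CCAAT boxes and 0 E2F words, and 78.7% of the 300 bases searched, which run 20 bases past those printed, are G or C. DNA methylation was not analysed here.

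The partners of these pathways, such as the polymerases, the clamp and its loader and a ligase, were set beside the 39 genes as a list of 40, of which 39 were tested. By limma 0 were called higher and 0 lower, with 2 higher and 4 lower at an unadjusted p under 0.05, where 8.96% and 13.9% of all genes were, and a median log2 fold change of -0.11. FEN1, the flap nuclease, came closest at 87.73 and 98.03 in WT against 59.97 and 60.47 in ZCCHC4 KO1 (log2 fold change -0.61, adjusted p = 0.0545 from limma). With the GC trend removed 2 of the 39 were higher and 4 lower, where 7.35% and 12.7% of all genes were. Those lower were FEN1, LIG1, PCNA and CETN2, and those higher were ERCC3 and POLE4. FEN1, LIG1 and PCNA, the sliding clamp, also serve replication, and PCNA was at 204.26 and 190.8 in WT against 102.95 and 148.92 in ZCCHC4 KO1. CETN2 binds XPC and was at 24.96 and 23.56 in WT against 12.03 and 18.24 in ZCCHC4 KO1.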

How the data were processed

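Total RNA of 4 libraries, 2 per group, was sequenced. According to the supplement the reads were aligned to GRCh38 with Bowtie2 and expression was estimated with RSEM, versions and annotation not being given in the sources used here. The labels name an Illumina HiSeq instrument and the supplement another platform. The authors deposited FPKM values, 1 column per library, and 0 columns were left without a sample. Read totals are not part of FPKM values, which leaves the depth unknown, and counting error could not be computed.

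Entrez identifiers were matched to RefSeq (GRCh38.p14), which named 16384 of 16658 genes. Genes with an FPKM of at least 1 in at least 2 libraries (10726) entered limma 3.58.1 (R 4.3.3) on the scale log2(FPKM + 1), with a trended eBayes, two-sided tests and Benjamini-Hochberg adjustment over all of them. GC content was that of the longest GENCODE transcript and was found for 10559 tested genes, and its trend was removed from each library with a natural spline of 4 degrees of freedom. The script was tested on simulated data. Values in all 4 libraries are given for called genes, for the most abundant gene and the gene with the largest log2 fold change of each role, and for genes below the filter, and others were added after their values were seen. The repair genes, lists and alternatives were chosen with earlier results of these data known.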

Additional observations from a re-analysis of the deposited data

How the results depend on the processing

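Against 1 repair gene higher and 0 lower, there were 0 higher with no filter and 0 at the thresholds of the study, 2 after scaling by median ratios and 2 after quantile normalization, and 3 higher and 3 lower once the GC trend was removed. A pseudocount of 0.1, a minimum FPKM of 5 and eBayes without a trend left these counts at 1 and 0. Leaving out each library in turn gave from 1 to 2 higher and from 0 to 2 lower, the lone library being assumed to vary like the other group; the 2 and 2 came without ZCCHC4 KO1 replicate 2, where MGMT joined ERCC2 and where EXO1 and MSH6 were lower. Without WT replicate 1 the gene called was MGMT and not ERCC2. For the pathway partners, 0 higher and 0 lower became 1 and 1 after quantile normalization, 2 and 4 once the GC trend was removed, and from 0 to 1 and from 0 to 4 over leaving out each library. The median log2 fold change of the repair genes, -0.045, turned to 0.028 after scaling by median ratios and 0.054 after quantile normalization, where the median of all genes was 0.038 and 0.041, and ran from -0.082 to -0.0083 over leaving out each library.

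The labels share only replicate numbers, and the deviations of same-numbered libraries had a Pearson correlation of -0.787 across 10726 genes. With the replicate block 2 repair genes were higher (ERCC2 and MGMT) and 0 lower, and over all genes 107 were higher and 355 lower, beside 161 and 480 without it. Over all genes there were 82 and 262 with no filter, 346 and 664 after scaling by median ratios, 466 and 721 after quantile normalization, 776 and 1342 once the GC trend was removed, and from 97 to 558 higher and from 273 to 1037 lower over leaving out each library. When the pairing was crossed, an alternative chosen after seeing the data, 6 repair genes were higher and 8 lower, 4 partners were higher and 13 lower, and over all genes 2309 were higher and 2986 lower.

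For ZCCHC4 the log2 fold change was -1.92 with a pseudocount of 0.1 (adjusted p = 0.0551 from limma) and -1.48 with no filter (adjusted p = 0.115 from limma), did not pass the thresholds of the study at -1.48, and ran from -1.81 to -1.15 over leaving out each library. Leaving out a library turned the sign for 19 of the 38 repair genes, none of which was called. All had overlapping groups, because the sign cannot turn where the groups do not overlap. Of these, DDB1, GTF2H4, TDG and NTHL1 ran from -0.018 to 0.18, -0.022 to 0.30, -0.75 to 0.028 and -0.016 to 0.53 in this order. These 4 turned without ZCCHC4 KO1 replicate 1, and DDB1 turned also without WT replicate 1 (-0.0098). Beyond what the alternatives themselves change, the cause was not tested.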
